A study of Mus musculus with 24 samples.

Results

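The 200 probes described here were the brightest of a mouse expression bead array whose raw signal lay at a similar height in brain, heart and kidney. They were chosen from 25697 probes in 2 steps, both on the raw signal (log2). Probes whose 3 tissue medians spanned less than 0.5 were kept, which left 18253, and the 200 with the highest minimum over the 24 arrays were taken. Of these probes, 193 had a gene name, and they stood for 183 genes; the other 7 had none. The choice used the tissue levels and the brightness, so both are described below with no test; the genotype was not used.

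The arrays compared mice heterozygous for the Kctd1 substitution L27N with wild type mice, all of the C3HeB/FeJ strain and 18.5 weeks old. Kctd1 encodes a BTB-domain protein. Each of 4 heterozygous and 4 wild type mice gave a brain, a heart and a kidney, so every group of tissue and genotype held 4 arrays; the design text counts 5 wild type mice, of which 4 were analysed here. The level of Kctd1 itself was not analysed here. Of the marker probes checked, 11 of 14 for brain, 11 of 11 for heart and 14 of 14 for kidney were highest in their own tissue. The whole organs hold many cell types, and fewer cells of a type and less RNA per cell cannot be told apart.

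Genes read in every tissue at a high level are often called housekeeping genes. They make ribosomes, fold and degrade proteins, carry proteins through the secretory pathway and keep the cytoskeleton. Such genes serve as references against which other transcripts are scaled, and their promoters tend to be rich in CpG dinucleotides and to lack a TATA box.

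The promoters of the members were rich in CpG. RefSeq's promoter table (GRCm38.p6, 250 bases before to 50 after the first listed start) held a window for 145 of the 183 genes. A window held a median of 24 CpG, against 22 for genes of probes that were as bright but not level, 21 for genes detected in all 3 tissues and 13 over all protein-coding promoters. The motif CCGGAAG, the core that ETS-family factors bind, occurred on either strand in 30.3% of the members' windows, in 23.8% of those of the bright genes that were not level and in 11.9% of all windows. The motif AAGATGGCG, which the factor YY1 is known to bind, occurred in 6.21%, 5.28% and 1.94%. TATAAA was found in 5.52% of the members' windows, 7.77% of those of the bright genes that were not level and 13.3% of all windows. For GGGCGG the shares were 64.8%, 66.4% and 46.3%, and for CCAAT they were 42.8%, 43.3% and 39%. The motif GCGCATGCG occurred in 7.59%, 4.40% and 2.41%, TCTCGCGAG in 4.83%, 2.35% and 1.02%, and CACGTG in 13.1%, 12.0% and 7.90%, in the same order and on either strand. These shares describe letters in a window and were not tested.

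The stretches below, from 100 bases before to 30 after the start, show how the first 2 motifs sit near the starts of members. They belong to the 4 members highest in the brightness order with CCGGAAG in the stretch and the 3 highest with AAGATGGCG; capitals mark these motifs or their reverse complements (CTTCCGG, CGCCATCTT). In all, 34 genes of members held CCGGAAG in this stretch, 5 held AAGATGGCG and 2 held both. Genes on a single chromosome were left out of these counts and of the choice shown. Rpl41 encodes a protein of the large ribosomal subunit and lies at chr10:128549139-128549268, minus strand. Btf3, a factor of the nascent polypeptide complex, lies at chr13:98316977-98317106, minus strand. Nedd8, a ubiquitin-like modifier, lies at chr14:55671851-55671980, minus strand. Ccpg1, a cargo receptor for autophagy of the endoplasmic reticulum, lies at chr9:72985404-72985533, plus strand. Glg1, a Golgi glycoprotein, lies at chr8:111259181-111259310, minus strand. Ssr4, a subunit of the translocon-associated complex, lies at chrX:73786923-73787052, plus strand. Mtx1, a protein of the outer mitochondrial membrane, lies at chr3:89213878-89214007, minus strand. In Rpl41 and Nedd8 the ETS core reads on the strand of the gene, and in Btf3, Ccpg1, Ssr4 and Mtx1 on the other strand.
Rpl41: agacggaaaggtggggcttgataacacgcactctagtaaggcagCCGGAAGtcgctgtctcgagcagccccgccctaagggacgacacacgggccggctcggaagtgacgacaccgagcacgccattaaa
Btf3: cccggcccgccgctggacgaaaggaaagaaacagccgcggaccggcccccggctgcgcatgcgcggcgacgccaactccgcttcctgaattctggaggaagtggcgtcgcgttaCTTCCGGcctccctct
Nedd8: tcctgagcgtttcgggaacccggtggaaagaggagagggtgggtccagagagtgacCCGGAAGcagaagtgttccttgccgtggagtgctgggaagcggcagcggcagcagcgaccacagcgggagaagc
Ccpg1: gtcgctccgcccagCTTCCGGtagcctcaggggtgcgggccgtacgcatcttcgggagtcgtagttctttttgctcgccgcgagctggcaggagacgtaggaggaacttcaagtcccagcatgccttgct
Glg1: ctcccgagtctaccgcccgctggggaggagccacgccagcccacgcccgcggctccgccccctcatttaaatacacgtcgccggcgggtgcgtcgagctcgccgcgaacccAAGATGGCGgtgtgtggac
Ssr4: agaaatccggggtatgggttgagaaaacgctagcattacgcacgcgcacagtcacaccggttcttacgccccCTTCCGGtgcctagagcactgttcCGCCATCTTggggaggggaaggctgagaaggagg
Mtx1: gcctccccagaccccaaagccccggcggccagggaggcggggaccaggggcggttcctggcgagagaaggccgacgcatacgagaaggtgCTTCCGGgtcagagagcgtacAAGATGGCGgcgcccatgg

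The members covered a wide range of brightness and were read far above background. Every one of the 200 was detected on all 24 arrays. The lowest signal over the arrays was 9752 for the brightest member, a probe without a gene name, and 305 for the last, Ppp4c, the catalytic subunit of a protein phosphatase. A probe's signal also depends on how well it hybridises, so the order of the probes is not an order of transcript abundance. The last members inside the limit were Fbl at 8.26, Sec24c at 8.25 and Ppp4c at 8.25 (lowest raw log2 signal), and the first outside it were Emc3 at 8.25, Vps54 at 8.25 and Lman2l at 8.25. At the other edge, the widest spans kept were those of Pgp, Taf10 and Spcs1 at 0.496, 0.496 and 0.497, and the narrowest left out at this brightness were those of Rps6, Psma5 and Taz at 0.501, 0.502 and 0.504. Another 946 probes, with 816 genes, were as bright as the members and not level. The brightest of them measured Atp5b, a subunit of the ATP synthase.

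The first members in the brightness order included 2 ribosomal proteins, an iron store, a glycolytic enzyme and an actin. Rplp1, an acidic protein of the ribosomal stalk, had a raw signal of 11475 to 14732 in brain (median 12509), 10077 to 13014 in heart (median 10940) and 8371 to 10553 in kidney (median 10198). The brain arrays all lay above the kidney arrays, and the heart arrays overlapped both. Fth1, the heavy chain of the iron store ferritin, had 8118 to 12233 in brain (median 9891), 11962 to 15033 in heart (median 12843) and 8374 to 10872 in kidney (median 9607). The heart was the highest tissue by its median, and its arrays overlapped with those of brain and not with those of kidney. Tpi1, the triose-phosphate isomerase of glycolysis, had 4244 to 5461 in brain (median 4764), 5828 to 7118 in heart (median 6345) and 5415 to 6950 in kidney (median 5980). Here the brain was lowest and barely overlapped with the kidney. The other members among the first 10 were Rpl41, Atpif1 (the inhibitor of the mitochondrial ATP synthase), Actb, Eif3i (a subunit of the initiation factor eIF3), the unnamed probe and 2 probes annotated to Ubb-ps. Ubb-ps is a pseudogene of the ubiquitin gene Ubb, so which copy these 2 probes measured is uncertain.

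Among gene groups, proteasome subunits and translation factors had the most members. The proteasome degrades proteins tagged with ubiquitin, and 8 of its 43 probes were members (18.6%, against 0.805% of all named probes): Psma2, Psmb4, Psmd4, Psmc4, Psmd13, Psmb1 and both probes of Psma7. The share over all named probes also counts probes too dim to be chosen. Another 14 proteasome probes were as bright and not level, 11 of them highest in heart on the raw scale and 10 after normalization. Of the probes for translation factors, 7 of 60 were members, for Eif3i (both probes), Btf3, Eif3d, Eif3l, Eif5a and Eef1b2. Another 14 were as bright and not level. The histone and chromatin list had 4 of 24, H3f3a and H3f3b (both encoding histone H3.3), Hmgn1 and Nap1l1, with 3 more as bright and not level. The members for ribosomal proteins were Rps19, Rps26 and Fau, 3 of 29 probes of the small subunit, and Rplp1 and Rpl41, 2 of 47 of the large one. A further 17 and 21 probes of these 2 lists were as bright and not level. Of those, 16 and 18 were highest in heart on the raw scale, and 13 and 14 after normalization.

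The other lists held 3 members or fewer. Splicing and RNA-binding genes had 3 of 54 probes (Srsf1, Pcbp1 and Hnrnpa2b1), membrane traffic 3 of 55 (Arf1, Sec22b and Copa), cytoskeleton 2 of 42 (Actb and Myl6) and iron and redox genes 2 of 23 (Fth1 and Gstp1). Ubiquitin genes had 1 of 12 (Nedd8) and chaperones 1 of 36 (Hspa8). The respiratory chain and ATP synthase had none among 92 probes, although 56 of them were as bright as the members; 53 of these were highest in heart on the raw scale and 50 after normalization. The proton pump of acidic organelles, the V-ATPase, had none among 21, and of its 11 bright probes 9 were highest in brain on the raw scale and 8 after normalization. Of 36 probes for genes often used as references, Actb gave 1 member and 13 were bright and not level. The brightest probe of Gapdh spanned 0.972 between tissues on the raw scale. After normalization of all arrays together its means were closer, at 12.79 in kidney, 12.94 in brain and 13.06 in heart (log2).

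Level raw signals were not level after the arrays had been normalized together. With background correction and quantile normalization over the 24 arrays (the neqc method of limma), 87 of the 200 members, 43.5%, still had tissue medians within 0.5 on the log2 scale. The spans then ran from 0.029 to 1.22 with a median of 0.55, where the raw spans had a median of 0.33, and 14 members spanned 1 or more. For comparison, 11.7% of the bright probes that were not level by their raw signal spanned less than 0.5 after normalization, and 21.6% of the 9268 probes detected in all 3 tissues did. With a shift of each array to a common median in place of the quantile step, 151 of the 200 stayed under 0.5. Taking the normalized values for the choice itself gave a list that shared 79 of 200 probes with the members, and a span limit of 0.25 on the raw values gave one that shared 59.

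The order of the tissues turned with the scaling. After joint normalization the kidney mean was above the heart mean in 192 of 200 members and above the brain mean in 165, with medians of 0.38 and 0.37 (log2). Over all probes detected in 3 tissues these medians were -0.01 and 0.10. On the raw scale the kidney was above the heart in 65 members and above the brain in 84, with medians of -0.12 and -0.03, where the medians over all detected probes were -0.25 and -0.20. With the median shift the same 2 medians of the members were -0.02 and 0.12, and those of all detected probes -0.32 and -0.24. The choice on raw tissue medians fixes part of this.

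For 70 members the highest tissue was the same under 4 scalings (raw, joint neqc, quantile without background correction, median shift): the kidney for 40, the brain for 24 and the heart for 6. Taf10, a subunit of the transcription factor TFIID, was highest in kidney under each, with normalized levels of 9.09 ± 0.11 in kidney, 8.34 ± 0.11 in heart and 7.89 ± 0.08 in brain (log2, mean ± SD, n = 8 arrays). Sec24c, a coat protein of vesicles that leave the endoplasmic reticulum, had 8.93 ± 0.16, 7.90 ± 0.16 and 7.76 ± 0.11 in the same order. Both showed kidney levels about a log2 unit above brain. Reep3, an endoplasmic reticulum protein, had 9.01 ± 0.13 in kidney, 8.33 ± 0.09 in heart and 7.88 ± 0.12 in brain, and Atraid had 9.25 ± 0.24, 8.16 ± 0.14 and 8.13 ± 0.13. Cdk5rap3, which takes part in protein modification by UFM1, had 9.47 ± 0.11 in kidney, 8.48 ± 0.08 in heart and 8.39 ± 0.11 in brain. These members spanned 0.452 to 0.496 on the raw scale, close to the limit of 0.5.

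In the other direction, Rplp1 was highest in brain under each of the 4 scalings, with normalized levels of 13.95 ± 0.08 in brain, 13.46 ± 0.06 in kidney and 13.02 ± 0.08 in heart. The unnamed first probe and both Ubb-ps probes were also highest in brain under each. Hspa8, the constitutive chaperone of the Hsp70 family, was lowest in kidney under each, at 11.41 ± 0.43 against 12.10 ± 0.30 in brain and 11.64 ± 0.19 in heart. Atpif1 was lowest in heart under each, at 11.67 ± 0.07 against 12.71 ± 0.06 in brain and 12.74 ± 0.07 in kidney. Naxd, which repairs damaged NAD(P)H, was also lowest in heart, at 8.49 ± 0.10 against 9.58 ± 0.06 in kidney, as was Mtx1 at 9.00 ± 0.11 against 10.08 ± 0.13. Emc6, Ryk and Pnrc2 were lowest in brain under each scaling, with 8.63 ± 0.11, 8.10 ± 0.11 and 8.24 ± 0.06. Their heart levels were 9.11 ± 0.08, 8.63 ± 0.10 and 8.83 ± 0.13.

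After joint normalization the proteasome members spanned 0.24 to 0.51 between tissues. Psmb4, a subunit of the 20S core, had a raw signal of 2181 to 2930 in brain (median 2445), 2638 to 3326 in heart (median 2851) and 2271 to 2874 in kidney (median 2455), so that all 3 tissues overlapped. Its normalized levels were 11.30 ± 0.04 in brain, 11.21 ± 0.05 in heart and 11.46 ± 0.04 in kidney (n = 8), and its spread within groups, 0.04, was well under the median of the members. Psma2, another subunit of the core, spanned 0.31 after normalization and Psmd4, a ubiquitin receptor, 0.27. The 2 probes of Psma7 spanned 0.29 and 0.31. Psmc4, an ATPase of the regulatory particle, spanned 0.28, and Psmd13 and Psmb1 0.51 and 0.50. Psmd13 was highest in kidney under each scaling; the highest tissue of the other proteasome members changed with the scaling.

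The steadiest members over the 24 arrays after joint normalization were Glo1, Copa, Fbxw5, Ppp1ca and Coa3, with SDs of 0.09, 0.10, 0.10, 0.11 and 0.11. Glo1, which clears methylglyoxal, had 10.91 ± 0.09 in brain, 11.04 ± 0.07 in heart and 11.02 ± 0.06 in kidney. Its raw signal was 1744 to 2341 in brain (median 1884), 2314 to 2902 in heart (median 2527) and 1619 to 2254 in kidney (median 1848), so the heart median was the highest before normalization, with arrays that overlapped those of brain. With the median shift Glo1 was 0.49 higher in heart than in brain, against 0.13 with joint neqc. Copa, a coat protein of vesicles in the Golgi, had normalized levels of 8.43 ± 0.09 in brain, 8.54 ± 0.07 in heart and 8.55 ± 0.11 in kidney. Ppp1ca, the catalytic subunit of protein phosphatase 1, had 9.85 ± 0.10, 9.83 ± 0.08 and 9.92 ± 0.12. The least steady were Atraid, Sec24c, Taf10, Atpif1 and Cdk5rap3, with SDs over the 24 arrays of 0.56, 0.55, 0.52, 0.51 and 0.51, described above by their tissue levels.

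Within groups of tissue and genotype the spread of the members was close to that of other bright probes. The SD of a probe within groups, pooled over all groups of 4 arrays, had a median of 0.11 (log2) over the members. It was 0.11 over the bright probes that were not level, against 0.16 over all probes detected in 3 tissues. This order turned on the raw scale, where the median SD was 0.156 over the members, 0.163 over the bright probes that were not level and 0.118 over all probes detected in 3 tissues. After joint normalization, over successive sets of 50 members in the brightness order it was 0.097, 0.106, 0.113 and 0.123, higher in each dimmer set. The SD over all 24 arrays had a median of 0.27 over the members and 0.53 over the bright probes that were not level, a difference that the choice of level probes fixes. The largest SDs within groups were those of Dbp at 0.46, Hspa8 at 0.31 and Hnrnpa2b1 at 0.28. The raw median of the members on an array (log2) lay between 9.14 and 9.68 over the heart arrays, between 9.18 and 9.59 for brain and between 9.21 and 9.54 for kidney. After joint normalization each member was set against its mean over the group of tissue and genotype. The median of these deviations on an array lay between -0.03 and 0.02, with any genotype difference taken out beforehand.

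Many genes of the members had other probes. A further probe that was as bright and as level would itself have been chosen, so the choice of members bears on how level these probes are. Of the 183 genes, 74 had 122 further probes, of which 75 were detected on all 24 arrays. Of these 75, 41 spanned less than 0.5 on the raw scale (54.7%), against 33.2% of the 7333 probes detected on all arrays, and 8 spanned 1 or more. For 10 genes, 2 probes were members. Over the 24 arrays the normalized levels of such a pair correlated at 0.94 for Ppm1b, 0.92 for Ubb-ps, 0.88 for Ccdc47, 0.80 for Pop5 and 0.70 for Sdf2 (Pearson's r, as a description over arrays that share their tissue differences). For Trappc1, Eif2b5, Psma7, Cuta and Eif3i it was 0.57, 0.55, 0.42, 0.41 and -0.04. The 2 probes of Eif3i spanned 0.16 and 0.50 between tissues after normalization.

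Actb, the cytoplasmic actin often used as a reference, had 5 probes with different tissue patterns. The member had a raw signal of 3336 to 4088 in brain (median 3840), 3537 to 4083 in heart (median 3859) and 2818 to 3807 in kidney (median 2998). After joint normalization it was highest in brain, at 12.12 ± 0.09, and lowest in heart, at 11.55 ± 0.13, with 11.83 ± 0.23 in kidney; on the raw scale the kidney was lowest. The other 4 probes spanned 0.854 to 1.35 on the raw scale. A pair of them was highest in brain and lower in heart by 0.81 and 0.51 on the raw scale. The other 2, both dimmer, were lowest in brain under each of the 4 scalings, by 1.14 and 1.20 on the raw scale and by 1.81 and 1.80 after joint normalization, set against heart. So 3 probes of Actb read the brain above the heart after joint normalization and 2 read it below.

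No member was called different between heterozygous and wild type mice. Each tissue was normalized on its own with neqc and fitted with limma over all detected probes, with Benjamini-Hochberg adjustment and a threshold of 0.05. In kidney 0 of 200 members passed, where 0.273% of all 10976 probes tested did, and the smallest adjusted p of a member was 0.433. In brain (12608 probes) and heart (12004 probes) 0 members passed and 0% of all probes did, with smallest adjusted p-values of 0.511 and 0.927. The mean over the 3 tissues of a mouse gave 0 members and 0% of 9268 probes, with a smallest adjusted p of 0.641. The interaction of genotype and tissue gave 0 members and 0.317% of 14835 probes, with a smallest adjusted p of 0.684, for Ilvbl. This fit treated the 24 arrays as independent, although each mouse gave 3 of them.

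At an unadjusted p under 0.05, limma gave 5 members for kidney (2.5%, against 8.52% of all probes), 5 for brain (2.5%, against 7.1%) and 2 for heart (1%, against 4.75%). The mean over tissues gave 6 (3%, against 7.7%) and the interaction 2 (1%, against 6.5%). Groups that did not overlap were found for 4 members in kidney (2%, against 4.58%), 8 in brain (4%, against 3.93%), 4 in heart (2%, against 2.58%) and 6 for the mean over tissues (3%, against 3.72%). The difference of heterozygous minus wild type had a median over the members of -0.017 for kidney, -0.015 for brain and -0.002 for heart. Its size had a median of 0.076, 0.055 and 0.052, against 0.096, 0.078 and 0.079 over all probes tested, with a median standard error of 0.105, 0.087 and 0.087 for a member. Over all probes tested the median standard error was 0.116, 0.101 and 0.106. In each tissue the median size of the difference was below the median standard error, for the members and for all probes tested.

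The members with the lowest p-values in each direction are named with their values, none of which passed the adjusted threshold. In kidney, Preb, a factor for vesicle budding from the endoplasmic reticulum, had 8.46, 8.76, 8.96 and 8.95 in the heterozygous mice and 8.54, 8.45, 8.33 and 8.50 in the wild type. The groups overlapped through 1 heterozygous mouse, and the difference was 0.33 ± 0.12 (SE, adjusted p = 0.458, limma). Psmc4 had 10.11, 10.01, 10.08 and 10.09 against 9.73, 9.85, 9.78 and 9.95. All heterozygous values lay above all wild type values, with a difference of 0.25 ± 0.09 (adjusted p = 0.498). In brain and heart the difference of Psmc4 was 0.035 ± 0.086 and 0.063 ± 0.081. H3f3a had 9.81, 9.57, 9.47 and 9.26 in heterozygous kidneys against 9.95, 9.91, 9.77 and 9.81, overlapping through 1 mouse, with a difference of -0.33 ± 0.12 (adjusted p = 0.433). The unnamed probe with the next lowest p differed by -0.29 ± 0.11 (adjusted p = 0.498).

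In brain, Ist1, which acts with the ESCRT machinery that remodels membranes, had 9.80, 9.84, 9.81 and 9.86 in heterozygous mice against 9.65, 9.52, 9.41 and 9.62 in wild type. The groups did not overlap, and the difference was 0.28 ± 0.08 (SE, adjusted p = 0.511, limma). Reep3 also did not overlap, with 0.17 ± 0.08 (adjusted p = 0.722). Ilvbl had 8.13, 8.38, 8.33 and 8.40 against 8.65, 8.54, 8.52 and 8.55, again without overlap and lower in the heterozygous mice, with -0.26 ± 0.09 (adjusted p = 0.544). Hspa8 had 11.84, 11.64, 11.60 and 11.51 against 12.24, 11.94, 12.01 and 11.73, with -0.33 ± 0.11 (adjusted p = 0.538), and its groups overlapped.

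In heart, Babam1, a subunit of the BRCA1-A complex, had 8.15, 8.32, 8.41 and 8.45 in heterozygous mice against 8.05, 8.04, 8.20 and 8.22, with a difference of 0.21 ± 0.09 (SE, adjusted p = 0.927, limma). Tpm1, a tropomyosin, had 8.78, 8.71, 8.73 and 8.68 against 9.02, 8.85, 8.89 and 8.87. Its groups did not overlap, and the difference was -0.18 ± 0.08 (adjusted p = 0.927). Cuta differed by 0.17 ± 0.10 and Hnrnpa2b1 by -0.35 ± 0.16, both with an adjusted p of 0.927. Without heterozygous replicate 3 the difference of Hnrnpa2b1 was -0.22. With the median shift Babam1 differed by 0.03, Cuta by 0.01 and Tpm1 by -0.35. The widest difference of a member in heart was that of Dbp, at 0.55 ± 0.33 (adjusted p = 0.927), whose values are given below.

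A few members followed the number of the array within its tissue. The labels number the arrays 1 to 24, with 8 in a row for each tissue, and they are counted here as 1 to 8 within a tissue, which puts the same mouse at the same number in each. What the order stands for is not given in the sources used here. The heterozygous mice held numbers 2, 6, 7 and 8, so genotype and number overlap in part. This fit was chosen after the data were examined. In kidney 4 of 200 members passed (2%, against 2.5% of all probes), in brain 0 (against 0.238%) and in heart 6 (3%, against 4.22%). With this processing the shares of the members were near those of all probes. With genotype in the model 3 passed in kidney (1.28% of all probes), 0 in brain (0.0317%) and 1 in heart (1.22%). In kidney these were Dbp, Hnrnpa2b1 and a member that had not passed without genotype. In heart it was Dbp. The shares depended on the processing. Without background correction and without genotype in the model, 1 rising and 15 falling members of 200 passed in kidney (against 3.53%). In heart 14 rising and 12 falling then passed (against 6.38%). The other settings are given at the end.

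Dbp, a PAR bZIP transcription factor whose transcript is known to cycle with the circadian clock, was the member that varied most between arrays of a group. In array order its heart values were 8.81, 9.46, 9.43, 10.23, 10.33, 10.33, 10.53 and 10.69. They rose by 1.77 ± 0.21 from array 1 to 8 (SE of the fitted change, adjusted p = 0.0041, limma). In kidney the values were 8.90, 9.29, 9.72, 10.00, 10.04, 10.04, 9.71 and 10.31, which rose by 1.08 ± 0.23 (adjusted p = 0.027). The kidney call was lost without the first array, wild type replicate 1, with 0.77 (adjusted p = 0.179), and also without heterozygous replicate 1, 2 or 4, with adjusted p-values of 0.062, 0.058 and 0.119. In brain the values were 9.96, 9.83, 9.98, 10.15, 10.03, 9.83, 10.18 and 10.28, a change of 0.29 ± 0.15 that did not pass (adjusted p = 0.469). Whether the tissues differed in this was not tested. In heart and in kidney the first mouse was the lowest and the last the highest. Across the 3 tissues Dbp had raw medians of 1110 in brain, 1280 in heart and 1050 in kidney, with a tissue span of 0.286, so its level between tissues was close while mice of a tissue ranged from 601 to 1475 in heart.

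Other genes of the circadian clock moved with Dbp in the heart. A list of 18 clock genes was put together after the values of Dbp had been seen, so its counts are a description. The list and its counts hold Dbp itself, the member that prompted it. Of its 20 detected probes in heart, 11 passed (55%, against 4.22% of all probes), 9 rising, with Dbp among them, and 2 falling. The detected probes of Clock, Cry2, Hlf, Nr1d1, Nr1d2 and Per3 and the other detected probe of Tef did not pass. Per2, a repressor of the clock, rose by 1.78 ± 0.27 and 1.36 ± 0.18 on its 2 detected probes (SE, adjusted p = 0.0077 and 0.0053, limma), and Per1 by 1.38 ± 0.21 and 1.69 ± 0.28 (adjusted p = 0.0074 and 0.0092). Both probes of Ciart rose, by 1.42 ± 0.16 and 1.34 ± 0.25 (adjusted p = 0.0041 and 0.016), as did Bhlhe40 by 0.94 ± 0.12 (adjusted p = 0.0041) and 1 probe of Tef by 1.05 ± 0.19 (adjusted p = 0.013). Arntl, an activator of the clock, went the other way. Its values in array order were 6.42, 6.17, 6.27, 5.92, 5.67, 5.78, 5.63 and 5.48, and it fell by 0.92 with a SE of 0.13 (adjusted p = 0.0061). Nfil3, a repressor at the sites that Dbp binds, fell by 1.46 with a SE of 0.16 (adjusted p = 0.0041). In kidney 4 of 19 clock probes passed (against 2.5%): Dbp, Bhlhe40 and 1 probe of Per2 rose and 1 probe of Tef fell. In brain 1 of 21 passed (against 0.238%), a probe of Per1 that rose by 0.91 ± 0.12 (adjusted p = 0.0091). With genotype in the model the call of Tef in heart was lost (adjusted p = 0.057, limma). So were those of Bhlhe40 and Tef in kidney (0.065 and 0.074) and of Per1 in brain (0.088). A probe of Ciart in kidney then passed (0.025). None of the other clock genes was a member. Why these probes followed the array number was not tested.

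The other members that followed the array number were an RNA-binding protein, a chaperone and single probes of genes with several. Hnrnpa2b1, which packages nascent transcripts, had 9.63, 9.26, 9.24, 9.10, 8.73, 8.57, 8.92 and 8.41 in kidney in array order. It fell by 1.05 with a SE of 0.18 (adjusted p = 0.0089, limma) and in heart by 0.80 with a SE of 0.17 (adjusted p = 0.030). Another, dimmer probe of Hnrnpa2b1 changed by -0.16 ± 0.19 in heart and by 0.68 ± 0.13 in brain. The member changed by -0.49 ± 0.14 in brain. Neither the dimmer probe in heart and brain nor the member in brain passed. The member of Hspa8 fell in heart by 0.63 with a SE of 0.14 (adjusted p = 0.029), while the brighter probe of the same gene changed by 0.07 ± 0.11 (adjusted p = 0.782). The 2 probes of Hspa8 thus read different changes on the same arrays. In kidney, H3f3a fell by 0.62 with a SE of 0.15 (adjusted p = 0.039) and the member of Atraid by 0.68 with a SE of 0.15 (adjusted p = 0.030). The other 2 probes of Atraid changed by -0.15 ± 0.15 and -0.24 ± 0.14. With the median shift the kidney calls of Hnrnpa2b1, H3f3a and Atraid were lost, with changes of -0.85, -0.43 and -0.48 (adjusted p = 0.076, 0.161 and 0.190). In heart, Add3, which caps actin filaments, fell by 0.69 with a SE of 0.15 (adjusted p = 0.025), and Spcs1, a subunit of the signal peptidase, by 0.46 with a SE of 0.11 (adjusted p = 0.042). Eif2b5, a subunit of the exchange factor eIF2B, rose by 0.47 ± 0.11 (adjusted p = 0.043); with the median shift it changed by -0.01, and that direction therefore depended on the scaling. With the median shift the median change over all probes in heart was -0.34. With neqc the other tested probes in heart changed by -0.27 ± 0.12 for Add3 and -0.32 ± 0.11 for Spcs1. For Eif2b5 they changed by 0.23 ± 0.12 (also a member) and 0.23 ± 0.11. None of these other probes passed. On the authors' processed values H3f3a in kidney and Hspa8 and Spcs1 in heart just missed the threshold, with adjusted p-values of 0.0525, 0.0515 and 0.0510. Of the calls in this paragraph, only that of Hnrnpa2b1 in kidney held with genotype in the model (adjusted p = 0.036, limma). H3f3a and Atraid in kidney then had adjusted p-values of 0.161 and 0.089. In heart Hspa8, Add3, Spcs1, Eif2b5 and Hnrnpa2b1 had 0.0502, 0.057, 0.082, 0.108 and 0.128. The steady Glo1 changed by 0.14 in heart, 0.04 in kidney and 0.003 in brain, none of which passed.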

How the data were processed

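Brain, heart and kidney RNA of 8 mice was hybridised to 24 bead arrays, 1 per tissue and mouse. The table the authors deposited gives a mean bead intensity, not normalized and linear, and a detection p-value for each probe, per the file headers; GenomeStudio 2011.1 is named in the submitters' processing notes. A second deposited table gives processed intensity values that follow the first in rank on every array; its method is not given in the sources used here, and it served as an alternative. No slide is named. The number of arrays limits the precision.

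Members were chosen on log2 of the raw intensity, after earlier results of these data were known, as were the gene lists, the tests and the named genes. Gene names came from GEO's platform annotation (23978 probes with 1 symbol, 0 with several, 1719 with none), updated by gene ID through RefSeq GRCm38.p6. Genotype fits used neqc (offset 16) within each tissue, in limma 3.58.1 and R 4.3.3, with lmFit and eBayes over the probes that reached a detection p below 0.05 on 4 or more of a tissue's 8 arrays. Tissue levels and the interaction used neqc over 24 arrays. Named genes were the 10 brightest, the 2 per direction with the lowest p per tissue, the 5 steadiest and 5 least steady, and the 3 per direction with the widest tissue differences. The code was tested on simulated data. Alternatives covered background correction, normalization, offset, filter, spread, array weights, the replicate block, the array number, joint normalization, the processed table and each replicate left out. Of 12 same-numbered pairs of replicates, 3 had deviations that correlated above 0.1 (range -0.040 to 0.339). They were replicate 1 in heart (0.339) and replicates 1 and 4 in kidney (0.289 and 0.248). Deviations from means of 4 arrays cannot decide whether the numbers pair the mice. The main fits were unpaired, and the replicate block was an alternative. Within a tissue the replicates are separate mice.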

Additional observations from a re-analysis of the deposited data

Results flagged for a closer look

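In 60 groups of 4 arrays examined for the 5 least steady members and Dbp in all 3 tissues and for the members named above with the lowest genotype p-values in their own tissue, 2 held a sample far from the others, and chance gives about 1 in 20. Sec24c in kidney stood at 8.45 in heterozygous replicate 1, where the other heterozygous mice had 8.61 to 8.64. Atpif1 in heart stood at 11.94 in heterozygous replicate 4, where the others were tied at 12.07.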

How the results depend on the processing

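No alternative gave a member called between the genotypes: 0 in kidney, brain, heart, the mean over tissues and the interaction, also with the replicate block and without each replicate. The share of members with a normalized span under 0.5, 43.5%, was 100% on the raw signal, which the choice used, and 75.5% with the median shift; without each replicate it ran from 41.5% to 44.5%. The median SD within groups was 0.156 on the raw signal (0.118 over all probes detected in 3 tissues) and 0.158 with the median shift, and 0.104 to 0.109 without each replicate. Of the members named for their genotype difference, with the array number as a covariate H3f3a in kidney differed by -0.16, Preb by 0.19, the unnamed probe by -0.18, Hspa8 in brain by -0.16, and in heart Babam1 by 0.09, Cuta by 0.08 and Hnrnpa2b1 by -0.09, and with the median shift the unnamed probe differed by -0.18 and Reep3 in brain by 0.11. The members that followed the array number depended on the settings. In kidney there were 16 of 200 without background correction (against 3.53% of all probes tested). There were 1 with the median shift (against 1.47%) and 14 with an offset of 50 (against 3.79%). Without each replicate the kidney had 0 to 4, the 0 without wild type replicate 1. In brain there were 2, 1 and 2 in the same order of settings (against 0.809%, 1.28% and 1.16%). In heart there were 26 (against 6.38%), 124 (123 falling, against 39.6%) and 16 (against 6.68%). With the median shift 4708 of all 12004 probes tested in heart were called falling. Beside genotype the heart had 1 (against 1.22%), and without each replicate 1 to 6. Dbp in heart passed under each setting, with a change of 1.36 to 1.93; in kidney it ran from 0.77 to 1.34 and did not pass without wild type replicate 1 (0.77), heterozygous replicate 1 (1.04), heterozygous replicate 2 (1.06) or heterozygous replicate 4 (1.06). On the authors' processed values the heart had 4 members that followed the array number (against 3.46% of all probes tested). The kidney had 3 (against 1.65%) and the brain 0 (against 0.103%). The causes were not tested. With 4 mice a group, differences near the standard errors given could not be shown.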
